A study of Mus musculus with 96 samples.

Results

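The genes described here encode the nuclear subunits of the mitochondrial respiratory chain and of ATP synthase, followed in single mouse oocytes and embryos from fertilization to the morula. They were chosen by name alone, as protein-coding genes whose symbols begin with Ndufa, Ndufb, Ndufc, Ndufs, Ndufv, Sdh, Uqcr, Cox4, Cox5, Cox6, Cox7, Cox8 or Atp5, without the Ndufaf assembly factors and without pseudogenes. This rule gave 90 of 55401 gene rows: 36 of complex I, 8 of complex II, 8 of complex III, 20 of complex IV and 18 of complex V. They carry 89 symbols, since Atp5o has a second row, ENSMUSG00000116933.1. The 8 rows of complex II are its 4 subunits and the assembly factors Sdhaf1 to Sdhaf4, which share the prefix. Ndufa4 and Ndufa4l2 were counted with complex IV, to which Ndufa4 is now assigned in spite of its name. Another 21 rows with these prefixes were left out, of which 8 were Ndufaf genes and 13 were not protein-coding, and cytochrome c1 (Cyc1) of complex III lies outside the prefixes.

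All animals were C57BL/6J and untreated beyond superovulation, in which females received PMSG and then hCG 46 h later before pairing with C57BL/6J males. There were 8 oocytes and 7 morulae, the latter at approximately 84 h. Of embryos timed from fertilization there were 5 each at 0 h, 2 h, 8 h, 10 h, 12 h, 14 h and 20 h, 2 at 4 h, 3 at 6 h, 6 at 24 h, 8 each at 16 h and 36 h, 9 at 18 h and 10 at 22 h. Collection began 12 h after hCG, at the time labelled 0 h, so hours are collection times and not observed fertilizations. Each library is a single oocyte or embryo, freed of cumulus cells with hyaluronidase and, per the labels' protocols, cultured in KSOM. The labels do not say which embryos share a mother, so p-values measure the spread between these embryos, which may be partly technical. Embryos from 0 h to 36 h were processed as a cohort, whereas oocytes and morulae each went through a batch of their own. In any comparison with oocytes or morulae, stage cannot be told apart from this batch.

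In oxidative phosphorylation, complexes I and II pass electrons from NADH and succinate to ubiquinone, complex III passes them to cytochrome c, and complex IV passes them to oxygen. The proton gradient built on the way drives ATP synthase, called complex V. The mitochondrial genome encodes a few core proteins of complexes I, III, IV and V, whereas complex II and most small accessory proteins are encoded in the nucleus. Mammalian oocytes hold a large store of mitochondria and of maternal mRNA, and mitochondrial DNA is not replicated in appreciable amount until after the cleavage stages. Maternal mRNAs are regulated by changes of their poly(A) tails, and poly(A)-primed cDNA does not separate tail length from transcript number.

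Promoter sequences are shown for 5 members that carry the main patterns below: Cox6a1 and Atp5k, which were high at 0 h and again in morulae, Sdhb, which was higher in morulae, and the pair Cox6b1 and Cox6b2, whose order reversed. They are the 250 bases before the annotated start, from RefSeq on GRCm38.p6. Their places are chr5:115348959-115349208 (minus strand) for Cox6a1, chr5:108434400-108434649 (minus strand) for Atp5k, chr4:140961021-140961270 (plus strand) for Sdhb, chr7:30626115-30626364 (minus strand) for Cox6b1 and chr7:4753095-4753344 (minus strand) for Cox6b2. Capitals mark matches, on either strand, to GCGCATGC, the core letters bound by NRF1, or to CCGGAAG, the letters bound by ETS factors such as GABP.
Cox6a1: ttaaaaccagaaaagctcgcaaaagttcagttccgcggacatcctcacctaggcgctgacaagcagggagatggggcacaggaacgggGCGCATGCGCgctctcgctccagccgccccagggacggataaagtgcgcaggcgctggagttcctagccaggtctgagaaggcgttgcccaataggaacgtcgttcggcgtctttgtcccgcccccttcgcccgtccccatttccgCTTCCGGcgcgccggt
Atp5k: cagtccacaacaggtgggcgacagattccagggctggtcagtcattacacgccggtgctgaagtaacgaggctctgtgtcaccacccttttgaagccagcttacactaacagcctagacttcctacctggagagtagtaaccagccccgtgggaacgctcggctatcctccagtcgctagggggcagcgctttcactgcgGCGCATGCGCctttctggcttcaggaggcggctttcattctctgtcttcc
Sdhb: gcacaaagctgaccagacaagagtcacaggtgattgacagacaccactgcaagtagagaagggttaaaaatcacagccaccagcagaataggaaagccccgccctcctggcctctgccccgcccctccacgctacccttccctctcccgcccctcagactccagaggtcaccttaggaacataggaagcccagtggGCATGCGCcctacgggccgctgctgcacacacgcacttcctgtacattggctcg
Cox6b1: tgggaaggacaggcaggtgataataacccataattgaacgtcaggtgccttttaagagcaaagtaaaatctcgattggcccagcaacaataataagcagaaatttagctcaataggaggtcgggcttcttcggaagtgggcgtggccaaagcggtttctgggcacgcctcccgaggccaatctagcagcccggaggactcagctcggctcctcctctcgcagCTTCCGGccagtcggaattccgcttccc
Cox6b2: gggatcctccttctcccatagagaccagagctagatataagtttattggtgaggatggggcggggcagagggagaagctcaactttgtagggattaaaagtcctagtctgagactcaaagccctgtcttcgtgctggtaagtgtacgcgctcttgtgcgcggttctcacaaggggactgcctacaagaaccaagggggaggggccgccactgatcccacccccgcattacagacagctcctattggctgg
Within the 250 bases shown, the Cox6a1 window holds a match to each motif, the Atp5k and Sdhb windows hold the NRF1 letters, and the Cox6b1 window holds the ETS letters. The Cox6b2 window holds neither. With the 50 bases after the start added, the Atp5k and Sdhb windows also hold CCGGAAG. Over windows of 300 bases (250 before and 50 after the start) that matched 73 member symbols, GCGCATGC was present in 12.8% of 78 member windows and in 2.7% of all 32851 windows. CCGGAAG was present in 24.4% of member windows and 8.9% of all windows. AAGATGGC, the letters bound by YY1, was present in 12.8% and 2.7%. At least 1 of these 3 motifs was present in 42.3% of member windows and 13.3% of all windows. Among other members named below for large changes, the windows of Ndufa5, Ndufa1, Ndufa12 and Uqcr10 hold none of the 3, and those of Uqcr11 and Ndufa11 hold GCGCATGC. The 5 windows shown therefore do not stand for all members with these patterns, and a relation between motifs and changes was not tested. These are matches of letters, counted on both strands. The capitals of Cox6a1 and Atp5k at the NRF1 letters join a match on each strand that overlap.

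Levels are CPM, counts scaled to a library total of 1000000 gene counts after TMM normalization, and they are relative to the library, so that fewer transcripts of a gene and more RNA of other genes cannot be told apart. Gene counts per library ranged from 10223 in morula replicate 4 to 6795040, with a median of 2099013.5 and a second lowest total of 564266. A pair of libraries stood apart. The library labelled 10 h replicate 5 had a median correlation of 0.0708 with its group, 20.5 CPM summed over 10 oocyte markers against a group median of 18000 CPM, and 9105 CPM summed over 15 cumulus and granulosa markers, so it goes against its label. Morula replicate 4 had a median correlation of 0.428 and 1991 CPM of oocyte markers, against 61.9 to 140.8 CPM in the other 6 morulae. Cumulus marker sums had medians from 7.26 CPM in morulae to 588 CPM in oocytes, and single libraries reached 1031 CPM among oocytes (replicate 2), 970 CPM at 2 h (replicate 2), 2389 CPM at 8 h (replicate 2), 1295 CPM at 10 h (replicate 4), 1463 CPM at 12 h (replicate 5), 1323 CPM at 14 h (replicate 3) and 1083 CPM at 36 h (replicate 3).

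Summed over all 90 rows, the members made up 3665 ± 299 CPM in oocytes (SD, n = 8) and 6979 ± 487 CPM at 0 h (n = 5). Means were lower after 0 h, with 5251 ± 889 CPM at 2 h, then 4242 CPM at 4 h, and reached their minimum of 3226 ± 620 CPM at 16 h (3574 ± 411 CPM at 12 h). They were 4624 ± 1719 CPM at 20 h and 4430 ± 1053 CPM at 22 h. The means were 4060 ± 303 CPM at 24 h and 5288 ± 570 CPM at 36 h, and morulae had 18530 ± 7036 CPM. The 8 oocytes, between 3261 and 4174 CPM, lay wholly below the 5 embryos of 0 h, between 6447 and 7703 CPM. Of the morulae, 6 lay between 17650 and 27050 CPM, above every embryo of 36 h (4569 to 6476 CPM), and replicate 4 lay at 4018 CPM; without it the mean was 20950 ± 3205 CPM (n = 6). At 10 h the mean of 5468 CPM held replicate 5 at 12400 CPM, and the other 4 embryos had 3736 ± 583 CPM. These sums carry no test.

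**Figure D1:**
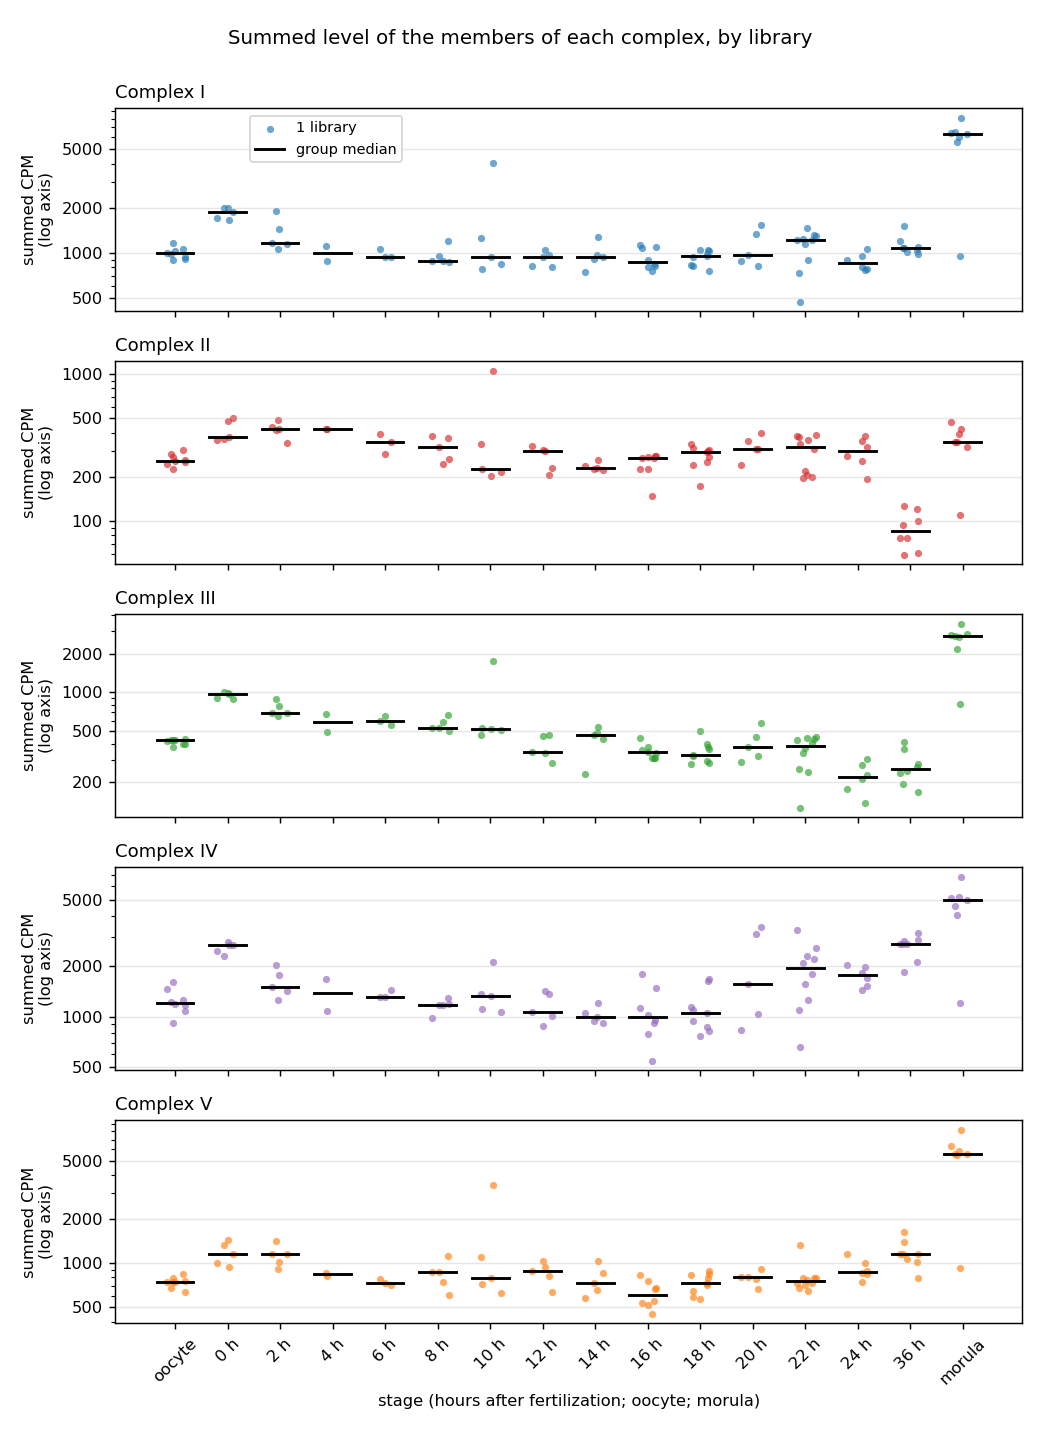
Summed CPM of the members of each complex (vertical axis, log scale) in every library (points), by stage group (horizontal axis), with a bar at the group median. Complexes I, III, IV and V are high at 0 h and highest in 6 of the 7 morulae. Complex II, drawn with its assembly factors, is also higher at 0 h than in oocytes and has its lowest group mean, 89.2 CPM, at 36 h. Its 4 subunits without the assembly factors, not drawn apart, had a lower mean sum at 0 h (166 CPM) than in oocytes (220 CPM).

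The complexes differed in where their sums were lowest. Complex II summed to 296 ± 68.4 CPM at 24 h and 89.2 ± 25.4 CPM at 36 h, and morulae had 344 ± 115.4 CPM, and the 24 h embryos (192 to 379 CPM) did not overlap with those of 36 h (58.7 to 126.2 CPM). Complex IV, in contrast, summed to 1751 ± 236 CPM at 24 h and 2628 ± 425 CPM at 36 h. Complex III was lowest at 24 h, with 222 ± 61.2 CPM, and reached 2502 ± 829 CPM in morulae. Complex I went from 1127 ± 176 CPM at 36 h to 5711 ± 2244 CPM in morulae, and complex V from 1173 ± 252 CPM to 5406 ± 2193 CPM. Without replicate 4 the morula means were 6503 CPM for complex I, 383 CPM for complex II, 2784 CPM for complex III, 5124 CPM for complex IV and 6154 CPM for complex V.

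The first comparison asked what differed around fertilization, between 0 h embryos and oocytes, across the batch. Many accessory subunits, among them Ndufa5, Uqcr11, Cox6a1 and Atp5mpl, were higher at 0 h, whereas Sdha, Atp5a1, Cox5a and 5 other members were lower. Of 75 members that passed the filter on low counts, edgeR called 41 higher and 8 lower at 0 h. The call is the quasi-likelihood test with Benjamini-Hochberg adjustment over all genes tested, at 0.05, and every adjusted p below is from it. Over all genes tested, 23.3% were higher and 22.5% lower. The median log2 change was 0.96 over the members and -0.02 over all genes tested. For 36 members all 0 h embryos lay above all oocytes, and for 6 they all lay below; of all 9556 genes tested, 1162 lay above and 941 below in this way. Without 0 h replicate 5, the count of lower members was 13.

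In complex I, 20 of 33 tested members were higher and 2 lower at 0 h. Ndufa5 (ENSMUSG00000023089.12; GRCm38 chromosome 6, 24518666 to 24528013, minus strand), an accessory subunit of the arm that reaches into the matrix, had 1.64 to 9.41 CPM in the 8 oocytes, with a median of 4.49 CPM. In the 0 h embryos it had 146, 111.5, 145, 170 and 146 CPM. The groups lay far apart, and the log2 change was 4.76 ± 0.21 (SE; adjusted p = 1.31e-14). Ndufa1, a membrane-arm subunit encoded on the X chromosome, went from 20.9 ± 6.03 to 231 ± 12 CPM (log2 change 3.48), and Ndufa11, another membrane-arm subunit, from 14.6 to 137.6 CPM (3.27). The 2 lower members were Ndufa10, an accessory subunit related to nucleoside kinases, and Ndufs3, a core subunit of the matrix arm. Ndufa10 had 519 ± 50.3 CPM in oocytes and 278 ± 57.7 CPM at 0 h, without overlap (edgeR log2 change -0.88 ± 0.12, adjusted p = 1.84e-06). Ndufs3 went from 16.8 to 8.44 CPM (adjusted p = 0.0247). Its call was lost without oocyte replicate 1 or 8 or 0 h replicate 1 or 2, with adjusted p from 0.0549 to 0.0781.

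In complex II the subunits moved in opposite directions. Sdha (ENSMUSG00000021577.14; GRCm38 chromosome 13, 74322254 to 74350280, minus strand), the flavoprotein that oxidises succinate, had 130 to 222 CPM in oocytes with a median of 161 CPM, and 58.5, 58.9, 46.4, 76.2 and 73.2 CPM at 0 h. All 0 h embryos lay below all oocytes, with a log2 change of -1.39 ± 0.15 (adjusted p = 8.69e-08). Sdhc, a membrane anchor, was higher, at 23.4 ± 6.22 CPM in oocytes and 80.1 ± 32.6 CPM at 0 h (log2 change 1.78, adjusted p = 7.59e-07). Sdhb, the iron-sulfur subunit, had 12.9 and 11.5 CPM, and Sdhd, the other anchor, 16.6 and 11.6 CPM, and neither was called. Of the assembly factors, Sdhaf4 went from 12.9 to 215 CPM (log2 change 4.11) and Sdhaf1 from 7.08 to 1.65 CPM (-2.06).

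Complex III had 6 of 8 members higher and 0 lower at 0 h, with 0 lower at an unadjusted p under 0.05 and 0 by DESeq2. Uqcr11, one of its smallest subunits, had 5.01 to 17.7 CPM in oocytes and 193, 152, 159, 181 and 168 CPM at 0 h (log2 change 4.02 ± 0.23, adjusted p = 1.24e-12). The hinge protein gene Uqcrh went from 25.8 to 147 CPM and Uqcr10 from 14.1 to 82.4 CPM. In complex IV, 7 of 12 tested members were higher and 3 lower. Cox6a1, the common form of subunit 6a, had 14.4 to 37.2 CPM in oocytes and 214, 203, 229, 275 and 247 CPM at 0 h (log2 change 3.33 ± 0.17, adjusted p = 1.97e-13). Cox6c went from 42.4 to 338 CPM and Ndufa4 from 87.5 to 632 CPM. The lower members were Cox5a (158 to 64.1 CPM), Cox5b (59.1 to 27.4 CPM) and Cox8a (455 to 333 CPM).

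In complex V, 6 of 15 tested members were higher and 1 lower at 0 h. Atp5mpl, a small membrane proteolipid of the complex, went from 22.7 ± 10.6 CPM in oocytes to 304 ± 60.7 CPM at 0 h (log2 change 3.82 ± 0.22, adjusted p = 2.07e-11). Atp5h, the subunit d of the stalk, went from 9.05 to 54.9 CPM, and Atp5k, the subunit e, from 8.52 to 40.2 CPM. The lower member was Atp5a1, the alpha subunit of the F1 head, at 87.8 and 40.9 CPM (log2 change -1.07, adjusted p = 3.73e-05). Atp5b, the catalytic beta subunit, had 417 ± 49.7 and 427 ± 89.6 CPM. Of the 13 protein-coding genes of the mitochondrial genome, which supply the other subunits of these complexes, 12 were tested and 12 were lower at 0 h. Of 10 oocyte markers, such as the zona pellucida genes, 8 were higher at 0 h, with a median log2 change of 2.00. The 15 cumulus and granulosa markers summed to 96.2 to 1031 CPM in oocytes and 32.1 to 720 CPM at 0 h. Of these markers, Amh, Foxl2 and Lhcgr were at 0 in the oocytes and Amh, Amhr2 and Foxl2 were at 0 at 0 h. Of 6 that were tested, 2 were lower at 0 h, and the part of cumulus RNA in these differences was not tested.

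**Figure D2:**
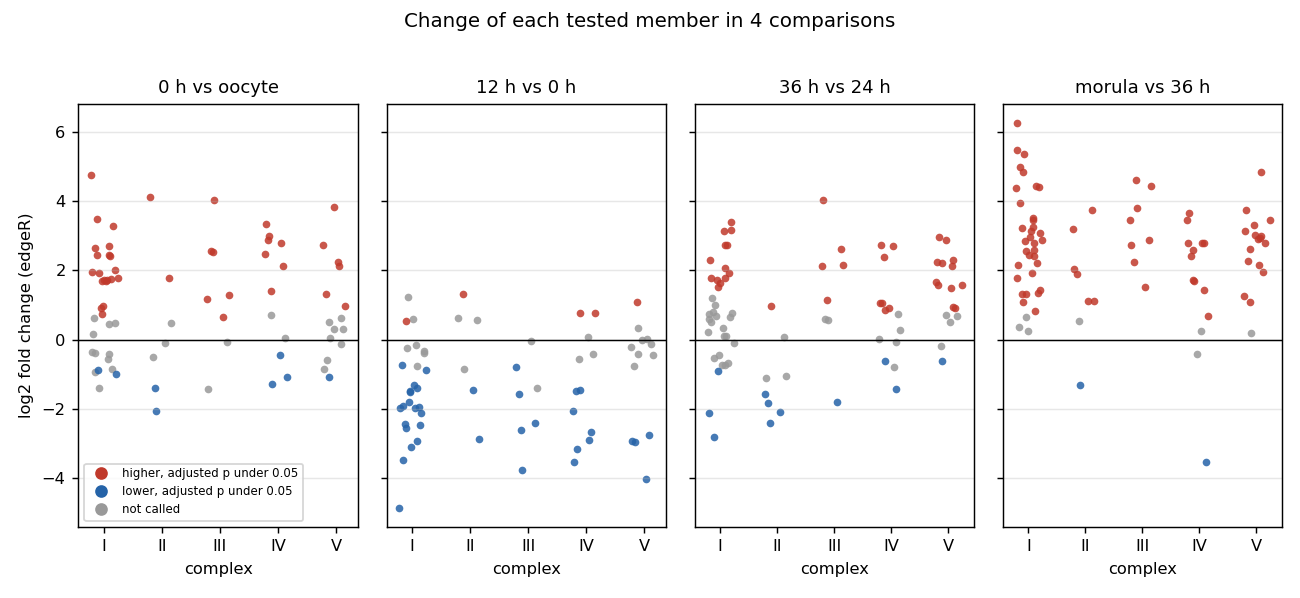
EdgeR log2 change (vertical axis) of each tested member (points) in 4 comparisons, by complex (horizontal axis). Red and blue points are members called higher and lower at an adjusted p under 0.05, and grey points were not called. In the comparison of 0 h with oocytes most called members of complexes I and III lie above 0, in that of 12 h with 0 h most lie below 0, and in that of morulae with 36 h 74 of 83 tested members lie above 0 and are called.

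Within the cohort, 21 members were lower at 2 h than at 0 h and most others were not called. This comparison shares the 0 h libraries with those of 0 h with oocytes and 12 h with 0 h, so their values are not independent of each other. Of 66 members tested, 21 were lower (4.0% of all genes tested) and 1 was higher (4.25%) at 2 h, with a median log2 change of -0.56 against 0.02 over all genes. Complex I had 7 lower of 27, complex II 1 of 6, complex III 1 of 7, complex IV 8 of 12 and complex V 4 of 14, and the median log2 change of complex V was 0.12. Blood and oviduct markers, 6 in all, summed to 26.9 to 2317 CPM at 0 h and 1.4 to 13.9 CPM at 2 h, and their part was not tested. The count of lower members ranged from 10 to 36 when 1 library was left out: 13 without 0 h replicate 5, 10 without 2 h replicate 1, 36 without 2 h replicate 2, 10 without 2 h replicate 4 and 11 without 2 h replicate 5. The 1 higher member was lost without 0 h replicate 1, 2 or 3 or without 2 h replicate 4 or 5. A single fit of all 96 libraries called 0 members in either direction.

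Ndufa5 had 60.5, 106.3, 87.1, 46.1 and 49.7 CPM at 2 h, all below the lowest 0 h embryo (111.5 CPM), a log2 change of -1.07 ± 0.23 (adjusted p = 0.00881). Replicate 2, with the highest cumulus marker sum of the 2 h group, also had its highest Ndufa5. Cox6a1 fell from a median of 229 to 105.1 CPM (log2 change -0.96), Cox6c from 338 to 155 CPM (-1.16), Atp5mpl from 304 to 133.7 CPM (-1.22) and Uqcr11 from 171 to 82.3 CPM (-1.10). Cox7a2l, known for joining complexes III and IV in supercomplexes, fell from 99.9 to 44 CPM (-1.23). The testis form Cox6b2, which was not called between oocytes and 0 h (253 and 259 CPM), fell to 129.2 ± 17.2 CPM (adjusted p = 0.00287). Sdha was the member that was higher, at 94, 77.5, 96.7, 141 and 134.1 CPM, each above the highest 0 h embryo (76.2 CPM), with a log2 change of 0.73 ± 0.20 (adjusted p = 0.0307).

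From 2 h to 8 h, 21 of 68 tested members fell (8.88% of all genes tested) and 0 rose (8.28%), with 1 higher at an unadjusted p under 0.05 and 0 by DESeq2. The fallers were 8 of 29 in complex I, 2 of 6 in complex II, 3 of 7 in complex III, 5 of 12 in complex IV and 3 of 14 in complex V. A single fit of all 96 libraries called 3 lower members. Without 8 h replicate 2 there were 28 lower members, and without 2 h replicate 2 there were 15. The median log2 change was -0.65 over the members and -0.05 over all genes tested. Of the 10 oocyte markers 7 were lower, with a median of -1.12. Of the 15 cumulus markers 5 were tested and 0 called, with 0 at an unadjusted p under 0.05 and a median of 1.95, and the sums were 70.6 to 970 CPM at 2 h and 84.3 to 2389 CPM at 8 h. The part of these markers in the result was not tested. Ndufa5 went down to 2.75, 19.5, 8.28, 6.91 and 8.9 CPM, all below the 2 h embryos (log2 change -2.79 ± 0.41, adjusted p = 0.000504). Replicate 2, with the cumulus marker sum of 2389 CPM, was again the highest. Atp5mpl fell from 133.7 to 22.7 CPM (log2 change -2.46) and Cox6c from 155 to 40.6 CPM (-1.86), and Ndufs5, an accessory subunit on the intermembrane side of complex I, from 24.8 to 6.3 CPM (-1.92). Sdhc fell from 100 ± 20.5 to 49.9 ± 9 CPM (log2 change -0.92, adjusted p = 0.00646).

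Over the first 12 h in full, 37 of 65 tested members were lower (19.4% of all genes tested) and 5 were higher (19.7%) than at 0 h. The median log2 change was -1.40 against -0.02 over all genes, and for 31 members every 12 h embryo lay below every 0 h embryo, as for 1120 of all 8211 genes tested. In the other direction this held for 1 member and 1030 genes. By complex, 19 of 27 members were lower and 1 higher in complex I, 2 and 1 of 6 in complex II, 7 and 2 of 12 in complex IV, and 4 and 1 of 13 in complex V, and 5 of 7 members were lower in complex III. The count of higher members was 3 without 0 h replicate 1 or without 0 h replicate 5, and without 12 h replicate 5 the counts were 38 lower and 5 higher. Of the 10 oocyte markers 8 were lower at 12 h, with a median log2 change of -1.39, and of the genes of the mitochondrial genome 8 of 11 tested were higher. Of 5 cumulus markers tested 1 was higher; their sums were 32.1 to 720 CPM at 0 h and 125.7 to 1463 CPM at 12 h. The 6 blood and oviduct markers summed to 26.9 to 2317 CPM at 0 h and 0 to 11.2 CPM at 12 h, and the 1 tested was lower (log2 change -3.47). The part of these markers in the result was not tested.

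Ndufa5 had 5.99, 4.7, 0, 1.02 and 9.05 CPM at 12 h, overlapping the range of the oocytes (log2 change from 0 h -4.84 ± 0.42, adjusted p = 2.25e-07). Uqcr11 fell from 171 to 11.4 CPM (log2 change -3.77) and Atp5mpl from 304 to 18.2 CPM (-4.03). Cox6a1 had 14, 34.8, 4.08, 3.06 and 38.8 CPM, all below 0 h (log2 change -3.52 ± 0.50, adjusted p = 0.000148), and its 2 lowest embryos, replicates 3 and 4, were also the 2 lowest for Ndufa5 and Uqcr11. The members that were higher were the flavoprotein Sdha, the F1 subunit Atp5a1, Cox5a, Cox5b and Ndufa10. Sdha had 108.8, 125.1, 167, 233 and 144 CPM, all above 0 h (log2 change 1.31 ± 0.23, adjusted p = 0.000258). Atp5a1 went from 40.9 to 85.4 CPM (adjusted p = 0.0114) and Cox5a from a mean of 64.1 CPM to a range of 77.6 to 133.5 CPM (0.011), and their groups overlapped. The call of Cox5b (adjusted p = 0.0288) was lost without 0 h replicate 1, 2 or 5 or 12 h replicate 1 or 2 (0.0568 to 0.082). That of Ndufa10 (0.0211) was lost without 0 h replicate 1, 4 or 5 (0.0514 to 0.0654).

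Set directly against oocytes, 12 h embryos differed in few members, across the batch. Of 74 tested, 5 were higher (13.5% of all genes tested) and 1 was lower (8.42%), and the median log2 change was -0.08 against 0.03 over all genes. Ndufa4 had a mean of 87.5 CPM in oocytes and 223 CPM at 12 h (133.5 to 358.5 CPM; log2 change 1.39 ± 0.25, adjusted p = 0.000588), with all 12 h embryos above all oocytes. Sdhaf4, at 12.9 and 28.9 CPM, was also higher (adjusted p = 0.0121). Ndufa11, at 14.6 and 31.8 CPM, had an adjusted p of 0.00963 that was 0.0646 without 12 h replicate 2, and Ndufa1, at 20.9 and 42.3 CPM, one of 0.0229 that was 0.113 without it and 0.072 without 12 h replicate 3. Atp5b, at 417 and 540 CPM, had one of 0.0214 that was 0.0542 without 12 h replicate 4. The lower member was Ndufb2, a small membrane-arm subunit of complex I, at 24 ± 6.46 and 9.26 ± 3.28 CPM (log2 change -1.30 ± 0.28, adjusted p = 0.00243). A single fit of all 96 libraries called 0 and 0, DESeq2 6 higher and 3 lower, and library size alone 2 higher and 6 lower. Without single libraries the higher count was 3 (12 h replicate 2), and the lower count was 3 (oocyte replicate 2), 2 (oocyte replicate 6), 2 (12 h replicate 2), 3 (12 h replicate 4) and 5 (12 h replicate 5).

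**Figure D3:**
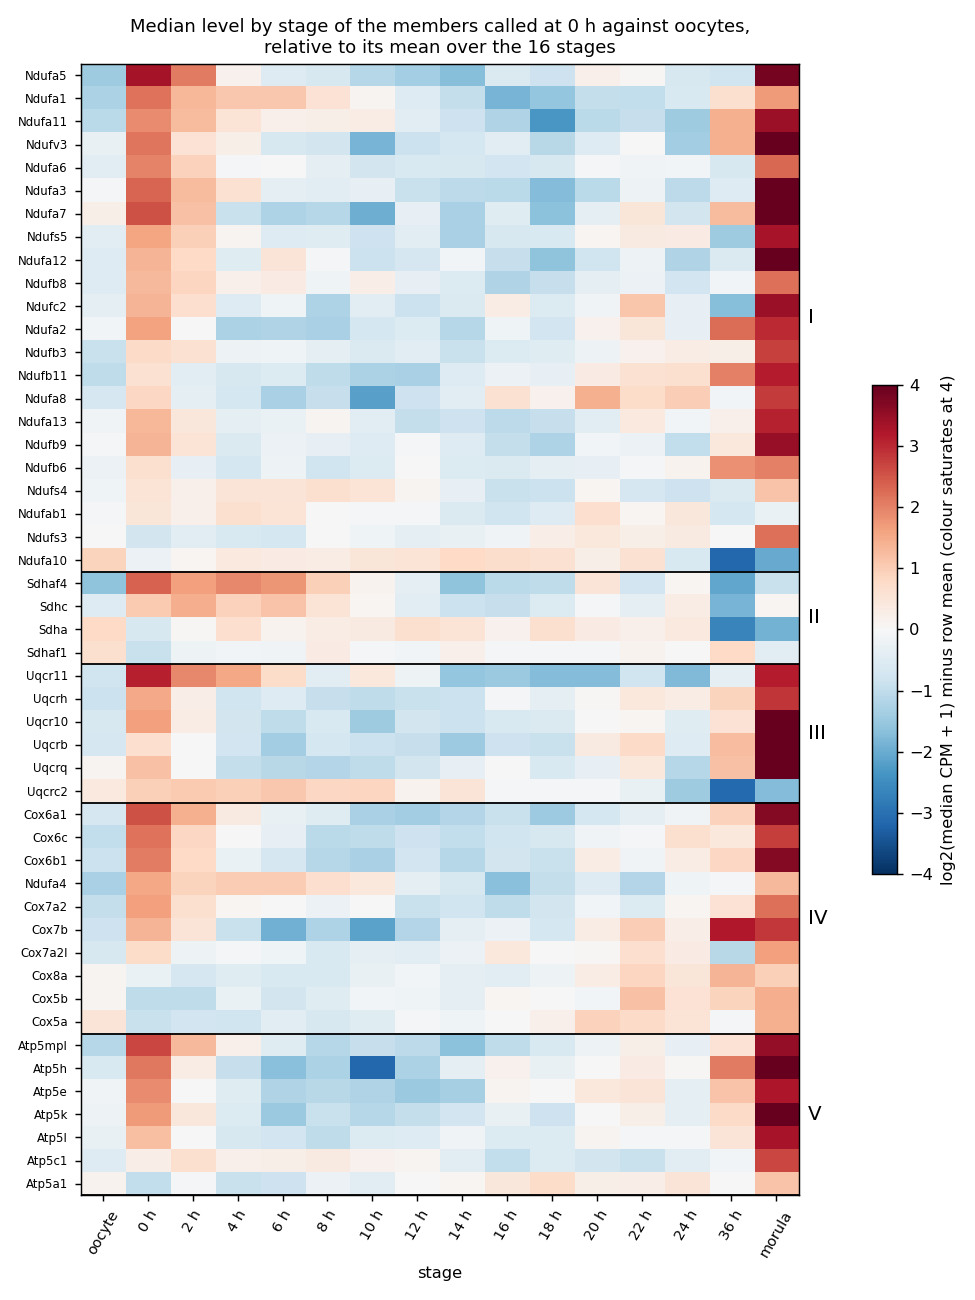
Median level of each of the 49 members called at 0 h against oocytes (vertical axis, by complex) in each stage group (horizontal axis), as log2 of median CPM plus 1, minus its mean over the 16 groups, with red above and blue below that mean. Rows were chosen by their call at 0 h against oocytes and ordered by that change within each complex. Their contrast between oocytes and 0 h therefore follows from this choice. Many members of complexes I, III, IV and V are red at 0 h, near 0 or blue in between and deepest red in morulae, whereas Sdha and Ndufa10 are deepest blue at 36 h.

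The members that were higher at 0 h had short transcripts. By 1 coding transcript per gene (GENCODE's principal one, or else the longest), their median length was 680 bases (n = 41), against 1533 bases for the 8 lower members and 1142 bases for the 25 not called. Over all genes tested the respective medians were 3193, 2625.5 and 3373 bases. Spearman's rho between the log2 change and transcript length was -0.55 over 74 members and 0.08 over 7937 genes in the comparison of 0 h with oocytes. It was 0.64 over 65 members and -0.08 over all genes for 2 h with 0 h, and 0.54 over 64 members and -0.09 over all genes for 12 h with 0 h. For 8 h with 2 h it was 0.51 over 67 members and -0.04 over all genes. In the other comparisons the values over members and over all genes were 0.12 and -0.08 for 12 h with oocytes, -0.09 and -0.13 for 24 h with 12 h, -0.19 and -0.15 for 36 h with 24 h, and -0.33 and -0.23 for morulae with 36 h. These are descriptions over genes that share libraries, and the comparisons share the 0 h libraries. TTTTAT or TTTTAAT, the letters of cytoplasmic polyadenylation elements, occurred in the last 100 bases of 9.8% of the members higher at 0 h, 12.5% of those lower and 4.0% of those not called. Over all genes tested, the shares were 20.1%, 24.0% and 21.8%.

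**Figure D4:**
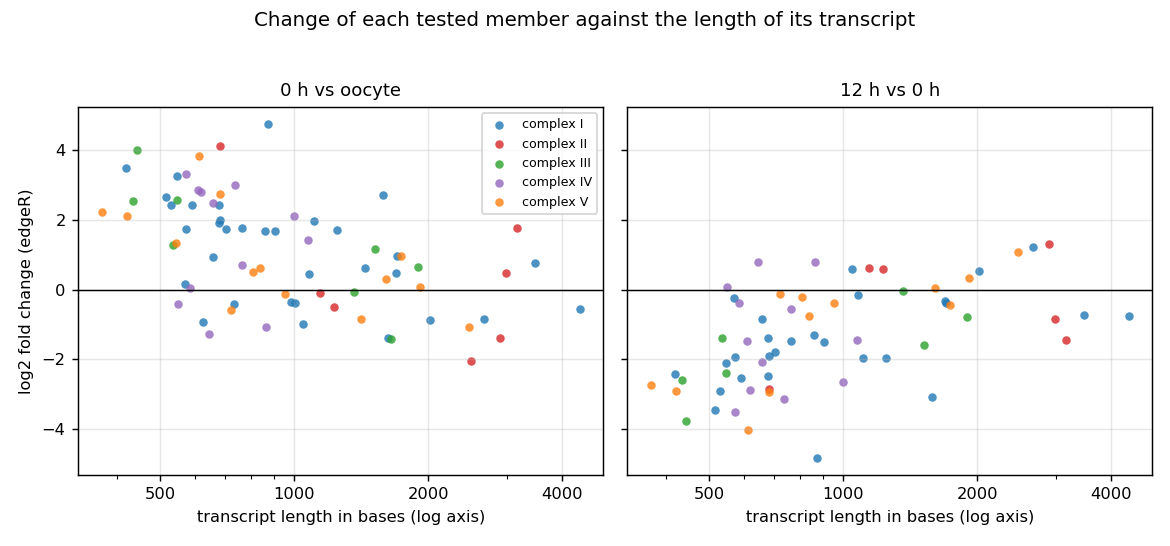
Log2 change of each tested member (vertical axis) against its transcript length in bases (horizontal axis, log scale), for 0 h with oocytes (left) and for 12 h with 0 h (right), with points coloured by complex. Shorter members lie higher for 0 h with oocytes (rho -0.55, n = 74) and lower for 12 h with 0 h (rho 0.54, n = 64).

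The comparison of 24 h with 12 h embryos covers the first cleavage. Of 74 members tested, 12 were higher (13.4% of all genes tested) and 2 were lower (8.23%), and 7 of the 12 belonged to complex IV, of which 13 members were tested. Complex II had 0 of 8 in either direction, with 1 higher and 0 lower at an unadjusted p under 0.05 and 0 by DESeq2. Cox6a2, the heart and skeletal muscle form of subunit 6a, had 3 counts in all 5 embryos of 12 h together and 10.8 ± 4.84 CPM at 24 h (adjusted p = 0.00143). Cox7b went from 4.63 to 19.3 CPM (log2 change 2.02), Cox6c from 37.9 to 103.9 CPM (1.47), and the complex V subunit Atp5j2 from 8.06 to 34.3 CPM (2.07, adjusted p = 0.0062). Ndufb2, the member that was lower at 12 h than in oocytes, was at 25.1 ± 6.73 CPM at 24 h (log2 change 1.44 ± 0.34, adjusted p = 0.00873). Without 12 h replicate 3 the count of higher members was 7. Without the 2 embryos of 24 h whose titles end in the letter b, it was 20. With library size alone the counts were 13 and 0. The 2 cumulus markers tested were lower at 24 h (median log2 change -2.79; sums of 125.7 to 1463 CPM at 12 h and 35 to 147 CPM at 24 h), and of the 10 oocyte markers 5 were lower and 1 higher. The 1 blood or oviduct marker tested was higher (4.07), with sums of 0 to 11.2 CPM at 12 h and 2.73 to 424 CPM at 24 h, highest in replicate 5. The part of these markers in the result was not tested. The 2 lower members were Uqcrc2 (adjusted p = 0.0371) and Ndufs4 (0.0498). Uqcrc2 lost its call without any 1 of 8 libraries (all of the 12 h group but replicate 2, and 24 h replicates 1 to 4), with adjusted p from 0.0567 to 0.092. Ndufs4 lost it without any 1 of 9 (all of the 12 h group, and 24 h replicates 1, 3, 4 and 6), with 0.0518 to 0.14.

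The embryos of 24 h were not alike. The meaning of the letter b is not stated in the labels. All titles of 4 h and 6 h share a single prefix, which holds the letter inside it. Titles that end in b also occurred at 16 h, 18 h and 22 h, and all embryos of 20 h had it. At 22 h the embryos without it had 2924, 3140 and 3393 CPM summed over all members. Those with it had 4022 to 6045 CPM. This difference did not hold at the other stages with both kinds of title. At 16 h the embryos without the letter had 4049, 3879 and 2997 CPM, and those with it 2205 to 3762 CPM. At 18 h the ranges overlapped, at 3025 to 3319 CPM without it and 3060 to 4187 CPM with it. At 24 h the mean was 4181 CPM without it (3873 to 4526 CPM) and 3818 CPM with it (3667 to 3968 CPM). The 2 embryos of 24 h with it, replicates 5 and 6, had 599 and 492 CPM of Ndufa10, against 108.4 to 200 CPM in the other 4. For Uqcrc2, a core protein of complex III, they had 196 and 235 CPM against 37.9 to 111.5 CPM, and for Cox6b1 18.3 and 23.4 CPM against 53 to 101.2 CPM. Sdha did not separate them, with 111.9 and 130.5 CPM inside the range of the others, 78.4 to 171 CPM. Their sums over 6 markers of the 2-cell stage were 26 and 28.1 CPM, against 108.3 to 1560 CPM in the other embryos. At 12 h, the embryos had 338 to 464 CPM of Ndufa10 and 230 to 368 CPM of Uqcrc2.

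Between 24 h and 36 h, the period that spans the main activation of the embryonic genome, 38 of 82 tested members rose (29.1% of all genes tested) and 11 fell (23.2%). The median log2 change was 0.79 against 0.05 over all genes. By complex, 13 rose and 3 fell of 35 in complex I, 1 and 4 of 8 in complex II, 5 and 1 of 8 in complex III, 7 and 2 of 14 in complex IV, and 12 and 1 of 17 in complex V. Complex II therefore had more members that fell than rose, and 3 of its 4 subunits were among the fallers. The median log2 change was -1.71 over the 4 subunits. All 13 genes of the mitochondrial genome rose. Of the cumulus and granulosa markers 5 of 15 were tested, of which 4 were higher and 1 lower at 36 h; their sums were 35 to 147 CPM at 24 h and 22.7 to 1083 CPM at 36 h, and Amh was at 0 at 36 h. Their part in the result was not tested. Without 36 h replicate 3, which holds the sum of 1083 CPM, 37 members rose and 12 fell.

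Sdha had 78.4, 146, 103.3, 171, 111.9 and 130.5 CPM at 24 h. At 36 h it had 3.95 to 48.7 CPM with a median of 13.9 CPM, below every 24 h embryo (log2 change -2.41 ± 0.47, adjusted p = 0.000507). Sdhc fell from 39.6 to 10.2 CPM (log2 change -1.84, adjusted p = 0.00186) and Sdhd from 31.9 to 9.87 CPM (-1.57, adjusted p = 0.00777), with overlap between groups. Sdhb had 11.3 ± 3.13 and 11.1 ± 8.07 CPM (log2 change 0.09 ± 0.48, adjusted p = 0.888). In complex I, Ndufa10 fell from 282 ± 210 to 37 ± 23.9 CPM (log2 change -2.81 ± 0.48, adjusted p = 0.000156), and all 36 h embryos (12.3 to 87.6 CPM) lay below all 24 h embryos. Ndufs5 fell from 12.7 to 2.7 CPM (-2.12), and the acyl carrier protein gene Ndufab1 from 59.8 to 30 CPM (-0.91). Uqcrc2 fell from 115.3 to 30.8 CPM (-1.81, adjusted p = 0.00209) and Cox7a2l from 72.1 to 25.3 CPM (-1.41). Cox5a (adjusted p = 0.0322) and Atp5b (0.0337) also passed. Cox5a lost its call without 24 h replicate 2, 3 or 6 or 36 h replicate 4 or 5 (0.0506 to 0.0754), and Atp5b without 24 h replicate 1 or 4 or 36 h replicate 5, 6 or 8 (0.0508 to 0.0661). The 4 embryos of 24 h whose titles do not end in b had means of 150 CPM for Ndufa10 and 65.5 CPM for Uqcrc2. Without the 2 embryos whose titles do, 3 calls of named members ended in this comparison and 2 were gained.

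The largest rise among the members at 36 h was that of Uqcrc1. Uqcrc1, the other core protein of complex III, had 0.773 to 2.57 CPM at 24 h and 25.2, 29.1, 51.7, 22.4, 17.1, 14.2, 6.61 and 8.36 CPM at 36 h (log2 change 4.02 ± 0.54, adjusted p = 2.43e-05). The groups did not overlap, and the highest embryo, replicate 3, had the cumulus marker sum of 1083 CPM. Earlier libraries with high cumulus sums also had high Uqcrc1. It stood at 83.9 CPM in replicate 2 of 8 h, at 69.9 CPM in replicate 3 of 14 h, at 52.2 CPM in replicate 5 of 12 h and at 520 CPM in the library labelled 10 h replicate 5. At 36 h, the other 7 embryos had cumulus sums of 22.7 to 216 CPM and 6.61 to 29.1 CPM of Uqcrc1. The part of cumulus RNA in this change was not tested. The Rieske protein gene Uqcrfs1 rose from 5.31 to 30.7 CPM (log2 change 2.62).

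In complex I, the core subunit Ndufs8 rose from 4.92 ± 4.13 CPM at 24 h to 51.6 ± 33.6 CPM at 36 h (log2 change 3.39 ± 0.52, adjusted p = 6.92e-05), Ndufc1 from 1.76 to 14.8 CPM (3.17) and Ndufv3 from 2.61 to 21.9 CPM (3.14). In complex IV, Cox7b rose from 19.3 ± 12.1 to 120.3 ± 22.7 CPM (2.71 ± 0.32, adjusted p = 8.59e-06), Cox7c from 1.36 to 8.85 CPM (2.74) and Cox4i1 from 16.1 to 78.7 CPM (2.39). In complex V, Atp5g1, 1 of the 3 genes for the c subunit of the membrane ring, rose from 17.6 to 133.7 CPM (2.97 ± 0.44, adjusted p = 5.68e-05), Atp5o from 3.79 to 27 CPM (2.86) and Atp5j from 8.73 to 41.3 CPM (2.31). Cox8a rose from 568 ± 89.6 to 1010 ± 190 CPM (adjusted p = 0.000792). Sdhaf1 was the 1 member of complex II that was higher, at 4.66 and 8.61 CPM (adjusted p = 0.0338). This call was lost without any 1 of 8 libraries, 24 h replicates 3 to 6 and 36 h replicates 1 to 4, with 0.0502 to 0.0783.

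Morulae were compared with 36 h embryos across the batch. Of 83 members tested, 74 were higher (28.2% of all genes tested) and 2 were lower (43.5%). The median log2 change was 2.74, against -0.55 over all genes tested. With DESeq2 these medians were 2.34 and -0.86, and with library size alone 2.48 and -0.78. By complex, 33 of 36 members of complex I were higher, 6 of 8 of complex II, 8 of 8 of complex III, 11 of 14 of complex IV and 16 of 17 of complex V. The groups did not overlap for 20 of the higher members and for the 2 lower ones, and for 631 higher and 2570 lower genes of all 11216 tested. These ranges include morula replicate 4, in which a gene at 0 cannot lie above the 36 h embryos but can lie below them. Ndufa5, at 0 CPM in replicate 4 and 151 to 254 CPM in the other morulae, overlapped for this reason. Non-overlap was not counted without replicate 4. Without morula replicate 4, which held 10223 counts, 76 members were called higher and 2 lower. Over the same interval 11 of 13 genes of the mitochondrial genome were lower. Cumulus marker sums were 22.7 to 1083 CPM at 36 h and 1.18 to 73.7 CPM in morulae, where 9 of the 15 markers were at 0.

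The largest change was that of Ndufa12 (ENSMUSG00000020022.17; GRCm38 chromosome 10, 94198720 to 94221443, plus strand), an accessory subunit of the matrix arm of complex I. It had 1.86 to 6.56 CPM in the 8 embryos of 36 h, with a median of 3.77 CPM, and 287, 285, 302, 36.9, 312, 208 and 416 CPM in the 7 morulae. Replicate 4 was the lowest, and its 36.9 CPM is a single count; the mean was 302 ± 67 CPM without it (log2 change over all 7 6.25 ± 0.42, adjusted p = 3.14e-11). In no earlier group did the median of Ndufa12 exceed 17.5 CPM, its median at 0 h. Ndufs5 went from 2.7 to 108.8 CPM (log2 change 5.46) and Ndufb7 from 8.98 to 337 CPM (5.36). Ndufa5 had 254, 205, 188, 0, 151, 240 and 245 CPM, where the value of 0 is that of replicate 4.

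In complex II, Sdhb went from 11.1 ± 8.07 CPM at 36 h to 133.5 ± 64.5 CPM in morulae (log2 change 3.75 ± 0.46, adjusted p = 1.13e-07), Sdhd from 9.87 to 85.7 CPM (3.18) and Sdhc from 10.2 to 32.3 CPM (1.88). Sdha was not called, at 21.4 ± 17.6 and 27 ± 17.8 CPM (log2 change 0.55 ± 0.49, adjusted p = 0.314). Sdha had its highest group mean, 167 CPM, in oocytes, whereas the group mean of Sdhb was highest in morulae. The assembly factor Sdhaf1 was lower, at 8.61 and 2.8 CPM (log2 change -1.31 ± 0.45, adjusted p = 0.0121).

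In complex III, Uqcr10 went from 35.1 ± 9.29 CPM at 36 h to 784 ± 337 CPM in morulae (log2 change 4.61 ± 0.39, adjusted p = 4.78e-10), Uqcrb from 24.2 to 477 CPM (4.43) and Uqcr11 from 13.8 to 174 CPM (3.79). In complex V, Atp5j, the coupling factor 6 subunit, went from 41.3 ± 19.2 to 1082 ± 426 CPM (4.84 ± 0.40, adjusted p = 3.97e-10), and Atp5k from 19.5 to 230 CPM (3.73). The second Atp5o row, ENSMUSG00000116933.1, went from 13.6 to 128.2 CPM (3.44), and reads of the pair of Atp5o rows may have been divided between them. Atp5b was the member of complex V that was not called, at 306 CPM (201 to 532 CPM) and 324 CPM (110.6 to 509 CPM). In complex IV, Cox7c went from 8.85 to 97.1 CPM (3.64), Cox7a1 from 3.27 to 30.9 CPM (3.46) and Cox7a2l from 25.3 to 155 CPM (2.80). Cox8a, at 1010 ± 190 and 713 ± 239 CPM, was not called.

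For subunit 6b of complex IV, the form with the higher mean transcript level differed between 36 h embryos and morulae, across the batch. Cox6b1 (ENSMUSG00000036751.7; GRCm38 chromosome 7, 30616861 to 30626151, minus strand) is the common form, and Cox6b2 (ENSMUSG00000051811.14; chromosome 7, 4751792 to 4753094, minus strand) the testis form. Cox6b2 had 307 to 801 CPM in the 8 embryos of 36 h, with a median of 516 CPM, and 21.7, 20.4, 19, 184, 4.06, 44.3 and 115.1 CPM in morulae. No morula reached the lowest 36 h embryo, and replicate 4 was the highest morula (log2 change -3.53 ± 0.54, adjusted p = 2.73e-06). Cox6b1 had 56.8 to 147 CPM at 36 h and 622, 592, 449, 73.7, 571, 369 and 837 CPM in morulae (log2 change 2.78 ± 0.35, adjusted p = 1.69e-07). Here replicate 4, inside the range of the 36 h group, was the lowest morula. Without replicate 4, which also had 1991 CPM of oocyte markers, the morula means were 37.4 CPM for Cox6b2 and 573 CPM for Cox6b1.

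Between genes, levels were compared per kilobase of transcript. On the scale of CPM per kilobase, Cox6b2 made up 91.1% of the pair in oocytes, 61.3% at 0 h, 87.1% at 36 h and 10.9% in morulae. Cox6b1 made up a median of 8.66% over oocytes (5.62% to 12.8%), 42% over 0 h embryos (27.2% to 49%), 8.91% over 12 h embryos and 95.7% over morulae (27.5% to 99.2%). The lower Cox6b2 share at 0 h came with a higher Cox6b1 level, since Cox6b2 stood at 433 ± 97.9 CPM per kilobase in oocytes and 443 ± 102.4 at 0 h. In the library labelled 10 h replicate 5, Cox6b1 made up 99.9% of the pair, against 5.88% as the lowest and 9.87% as the median share of its group, so for this pair too it goes against its label.

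**Figure D5:**
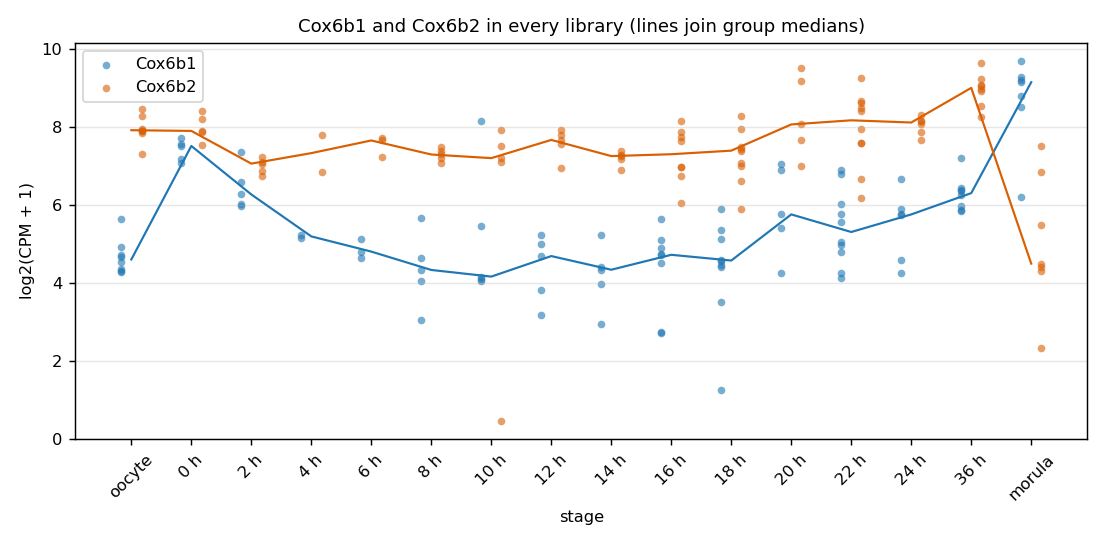
Levels of Cox6b1 and Cox6b2 as log2 of CPM plus 1 (vertical axis) in every library (points), by stage group (horizontal axis), with lines that join group medians. The Cox6b1 line is high at 0 h and in morulae, and the Cox6b2 line falls from a median of 516 CPM at 36 h to 21.7 CPM in morulae.

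The other tissue-restricted forms of complex IV each made up less of their set than the common form in every group. Cox6a2 made up a median of 18.4% of the subunit 6a pair at 24 h (11.3% to 29.1%), 4.82% at 36 h and 0% in morulae, where 3 counts fell on it. Cox4i2 made up 12.0% of the subunit 4 pair at 0 h and 0.951% in morulae. Cox7a1 made up 2.80% of the subunit 7a set at 36 h and 7.74% in morulae, with 568 counts in that group. Cox7b2, a testis form, had 0 counts in oocytes and 78 counts in morulae, and Cox8b had 0 counts in both. Of the genes for the c ring of complex V, which encode the same mature protein, Atp5g3 made up 94.9% in oocytes, 82.7% at 36 h and 69.8% in morulae. Atp5g1 went from 2.65% in oocytes to 16.8% at 36 h and 29.5% in morulae, and Atp5g2 stayed between 0.483% and 2.48% in these groups. The order of Atp5g3 and Atp5g1 in morulae depends on the annotated lengths, 723 bases for Atp5g3 and 4715 bases for Atp5g1. In CPM the order was the reverse, with 659 CPM of Atp5g1 and 246 CPM of Atp5g3 in morulae without replicate 4. Outside the rule, the testis form of cytochrome c, Cyct, made up 30.4% of its pair with Cycs in oocytes and 18.6% in morulae.

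Genes that work with the subunits were taken from lists in the same comparisons. Of the assembly factors of the complexes, 6 of 19 tested were higher and 3 lower at 0 h than in oocytes, 15 rose and 7 fell of 37 at 36 h, and 23 were higher and 3 lower of 40 in morulae. Over all genes tested, the shares higher and lower were 23.3% and 22.5%, 29.1% and 23.2%, and 28.2% and 43.5% in these 3 comparisons. Cox14, a factor for the translation and assembly of the mitochondrial Cox1 protein, had a mean of 22.4 CPM in oocytes and a range of 77.6 to 179.5 CPM at 0 h (log2 change 2.65). In the list of cytochrome c and coenzyme Q synthesis, 5 rose and 3 fell of 15 at 36 h. Cyc1, the subunit of complex III outside the prefixes, rose from 3.65 to 35.1 CPM (3.31). Coq7, a hydroxylase of coenzyme Q synthesis, went from 18.2 to 96.9 CPM at 0 h (2.48). Among the regulators of mitochondrial biogenesis, 7 rose and 2 fell of 13 at 36 h: Gabpa, the DNA-binding subunit of GABP, rose from 24 to 243 CPM (3.37), and Nrf1 fell from 84.1 to 37.3 CPM (-1.08) after a rise from 38.4 CPM at 12 h. Exons of Gabpa and Atp5j overlap, so reads of this pair may not be fully separated. Of the tricarboxylic acid cycle and pyruvate dehydrogenase genes, 6 rose and 6 fell of 16 at 36 h.

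Exons of 34 members overlap another annotated gene, among them Ndufa11 with Vmac, Ndufa3 with Tfpt, Ndufs3 with Kbtbd4, Uqcrc2 with Pdzd9, Cox5a with Gm26631, Cox6a2 with Itgad and Cox6c with Vps13b. Libraries of this kit carry no strand, so reads in the overlaps cannot be assigned to 1 gene. The 13 prefix rows that are not protein-coding summed to group means of 67.6 to 348 CPM, with 95 CPM in oocytes, 206 CPM at 0 h and 348 CPM in morulae. How far reads were divided between members and such rows was not tested.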

How the data were processed

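The deposited table gives estimated counts per gene and library, which the authors made, per the submitters' processing notes, with Trimmomatic 0.39, STAR and featureCounts on mm10. Of its non-zero values 28.4% were not whole (tolerance 0.001), so they are expected counts and were rounded to whole numbers for the tests. The annotation release, the use of strand and the handling of reads shared between genes are not given in the sources used here. Libraries were made with SMART-Seq v4, per the labels' protocols, from single oocytes and embryos. The table held 55401 gene rows once 873 repeat rows were left out, and 55141 IDs matched GENCODE M21 (GRCm38), from which symbols, biotypes, coordinates and transcripts were taken. Of the IDs 260 did not match. Gene counts per library ranged from 10223 to 6795040, without molecular identifiers, and no 2 libraries held identical values.

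Groups follow the labels. Each of 8 comparisons was fitted on its 2 groups alone with edgeR 4.0.16 in R 4.3.3 (filterByExpr, TMM, trended dispersion, robust quasi-likelihood fit). Tests were two-sided, and p-values were adjusted by Benjamini-Hochberg over every gene tested, with a threshold of 0.05. CPM used TMM factors over all 96 libraries. Log2 changes are given with their standard error and levels with their SD. Alternatives were DESeq2 1.42.0, library size alone, no filter on low counts, 1 fit of all 96 libraries, leaving out each library in turn, the title number as a replicate block, and leaving out the 24 h embryos whose titles end in b. The scripts were tested on simulated data. Levels of different genes were compared per kilobase of transcript, and only for Atp5g1 and Atp5g3 also in CPM. Promoters are RefSeq entries on GRCm38.p6.

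The members and the lists were chosen with earlier results of these data known. In each comparison and complex, up to 3 called members with the largest rise and up to 3 with the largest fall were named, with all members of the isoform sets and the 4 succinate dehydrogenase subunits, and up to 2 genes per direction of the other lists. 1 item is not reported here. Members named outside this rule were chosen after their values were seen. Tables and figures were made with Python 3.11.15, pandas 2.3.3, numpy 2.4.6 and matplotlib 3.10.9.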

Additional observations from a re-analysis of the deposited data

Results flagged for a closer look

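In groups of 4 to 10 libraries, the gap of the highest or lowest library to its nearest neighbour was set against Dixon's 95% critical value, for the summed level of all members, of each complex and for Ndufa5, Cox6a1, Sdha, Ndufa10, Cox6b1 and Cox6b2. Of 168 such groups 27 had a library past it, where chance gives about 1 in 20 for independent groups. These groups were not independent, since they share libraries and the sums hold the single members. Most lay in the libraries labelled 10 h replicate 5 and morula replicate 4.

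The library labelled 10 h replicate 5 stood above its group in all members (12400 CPM against 3266 to 4542 CPM in the others) and in each complex. It had 4054 CPM in complex I (others 777 to 1260 CPM), 1058 CPM in complex II (203 to 337 CPM), 1746 CPM in complex III (464 to 528 CPM), 2127 CPM in complex IV (1069 to 1372 CPM) and 3410 CPM in complex V (624 to 1109 CPM). It was also highest in Ndufa5 with 83.2 CPM (others 4 to 15.1 CPM), in Cox6a1 with 291 CPM (5.22 to 60.3 CPM) and in Cox6b1 with 288 CPM (15.67 to 43.3 CPM). For Sdha, 10 h replicate 4 was past the value, with 184 CPM against 108.7 to 121.5 CPM, and its cumulus marker sum was 1295 CPM against 103.1 to 158.5 CPM in replicates 1 to 3.

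Morula replicate 4, with 10223 counts and 1991 CPM of oocyte markers, stood below its group. It had 4018 CPM in all members (others 17650 to 27050 CPM), 958 CPM in complex I (5577 to 8159 CPM), 110.6 CPM in complex II (319 to 473 CPM), 922 CPM in complex V (5488 to 8172 CPM) and 0 CPM of Ndufa5 (151 to 254 CPM).

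Single libraries were past the value elsewhere. For complex I these were 8 h replicate 2 with 1204 CPM (others 872 to 950 CPM) and 36 h replicate 1 with 1526 CPM (978 to 1212 CPM). For complex II it was 16 h replicate 8 with 148 CPM (226 to 279 CPM), and for complex V 22 h replicate 1 with 1333 CPM (645 to 799 CPM), which was also highest in Sdha with 228 CPM (65.7 to 140 CPM). Ndufa5 had 25.9 CPM in 16 h replicate 1 (others 0 to 11.5 CPM), 16.3 CPM in 24 h replicate 6 (7.54 to 8.5 CPM) and 37.8 CPM in 36 h replicate 6 (2.23 to 10.8 CPM). Ndufa10 had 840 CPM in 18 h replicate 9 (365 to 570 CPM) and 87.6 CPM in 36 h replicate 3 (12.3 to 47.3 CPM). Cox6b1 had 49.5 CPM in oocyte replicate 8 (18.5 to 29.4 CPM) and 147 CPM in 36 h replicate 1 (56.8 to 85.6 CPM).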

How the results depend on the processing

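A count of members was called stable if it stayed within 1.5 times the main count whichever library was left out. By this cut the stable counts were the higher ones at 0 h against oocytes (40 to 42) and the lower ones at 12 h against 0 h (34 to 38). The lower ones at 8 h against 2 h (15 to 28, main count 21) also passed it. So did both counts at 36 h against 24 h (35 to 41 and 9 to 14) and both in morulae against 36 h (70 to 76 and 2). Less stable were the lower ones at 0 h against oocytes (6 to 13), the higher and lower ones at 2 h against 0 h (0 to 1 and 10 to 36), the higher ones at 12 h against 0 h (3 to 6), both at 12 h against oocytes (3 to 6 and 1 to 5) and both at 24 h against 12 h (7 to 16 and 0 to 2). Atp5j, not called at 2 h against 0 h (log2 change 0.29), had -1.46 without 2 h replicate 2 (adjusted p = 0.036) and up to 0.58 without others. A single fit of all 96 libraries gave 4 lower at 0 h against oocytes, 0 higher and 0 lower at 2 h, 3 lower at 8 h, 1 higher at 12 h against 0 h, 0 and 0 at 12 h against oocytes and 4 lower in morulae. Library size alone gave 1 higher at 12 h against 0 h, 2 higher and 6 lower at 12 h against oocytes and 0 lower at 24 h. No filter on low counts gave 3 higher at 12 h against 0 h, 3 lower at 12 h against oocytes, 1 lower at 24 h and 4 lower in morulae. DESeq2 gave 3 lower at 12 h against oocytes, and leaving out the 24 h embryos whose titles end in b gave 20 higher at 24 h. The cause of these changes was not tested. With library size alone, the all-gene median of the log2 changes moved from -0.05 to -0.28 at 8 h, from -0.02 to -0.29 at 12 h against 0 h, from 0.03 to -0.22 at 12 h against oocytes, from 0.05 to 0.25 at 24 h, from 0.05 to 0.29 at 36 h and from -0.55 to -0.78 in morulae. For single named members, DESeq2 ended 7 calls and left 422 results unchanged. A single fit of all 96 libraries ended 69 calls and left 369 results unchanged. The replicate block ended 23 calls, library size alone 17 and no filter 16. Leaving out 1 library ended 199 calls and left 5062 results unchanged. Unchanged results include members called in neither fit, so these counts give no share of calls lost. At 2 h against 0 h, the single fit ended 20 calls, and its 31 unchanged results were called in neither.

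What the numbers in the titles mark is not stated. Between equal numbers, the deviations of embryos from their group means correlated at -0.184 to 0.529. The highest value was between replicates 2 of 2 h and 8 h, which had cumulus marker sums of 970 and 2389 CPM. Such values, each between single embryos of different stages, cannot decide whether equal numbers share a mother, day or batch. With the number as a replicate block, 12 h against oocytes had 1 higher and 0 lower members and morulae had 1 lower. The other counts stayed within 1.5 times. Depth limits the precision of morula replicate 4, which held 10223 counts, each worth 36.9 CPM, with Ndufa5 and Sdhb at 0 and 1991 CPM of oocyte markers.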
